A study of Mus musculus with 16 samples.

Results

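The cMyc+prePB subpopulation was compared with the cMyc+lateCD23lo subpopulation, that is, the candidate precursors of plasmablasts (PBs) among cMyc+ germinal center (GC) B cells with the late cMyc+ light zone (LZ) cells that have the lowest CD23. The 4 libraries labelled cMyc+ prePB and the 4 labelled cMyc+ lateCD23lo were taken, 8 of the 16 libraries of the series. The comparison covered the 12505 genes whose normalized count averaged 10 or more over all 16 libraries, out of 51912 genes listed. All mice, in every group, were cMyc gfp/gfp reporters, in which GFP is fused to cMyc made from its own locus, were males and females 6 to 15 wk of age, and were injected i.p. with sheep red blood cells (SRBC), and spleens were taken on day 7. The cMyc+prePB cells were sorted as B220+ CD38low CD95+ cMycGFP+ CD69hi. The cMyc+lateCD23lo cells had the same B220, CD38, CD95 and cMycGFP phenotype and were CD23lo CD21/35lo, after the CD69hi cells and the CXCR4hi CD86lo dark zone (DZ) cells had been gated out. The remaining groups, cMyc+early and cMyc+lateCD23int, entered the same model. The labels do not say whether a library is 1 mouse or a pool, or whether libraries with the same number share mice, so that p-values measure the spread between these libraries, which may be partly technical.

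In a GC, B cells mutate their antibody genes while dividing in the DZ and compete in the LZ for antigen and for help from T follicular helper cells. Help signals through CD40 and NF-κB, and it induces cMyc, a transcription factor that drives ribosome production, metabolism and entry into the cell cycle. Positively selected cells either return to the DZ or leave the GC as plasma cells (PCs) or memory B cells (MBCs), and PCs are made by a program in which the transcription factors IRF4, Blimp-1 (*Prdm1*) and XBP1 replace BCL6 and PAX5. The question put to these 8 libraries was which genes set cells sorted as PB precursors apart from cells at the end of the cMyc+ LZ stages.

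Recovered read totals were 21430755 to 25795815 per cMyc+prePB library and 21911167 to 23429026 per cMyc+lateCD23lo library. A value at or under 3 reads, which is 2.48 to 3.23 normalized counts, was treated as not measurable, and this limit covers counting error only, because the reads carry no molecular identifiers. The cMyc+prePB replicate 1 library stood apart from its group. Its correlation of log2 values over the 12505 genes was 0.844 to 0.862 with the other cMyc+prePB libraries and 0.863 to 0.875 with the cMyc+lateCD23lo libraries. Several results that rest on it are therefore also given without it.

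As a check of the labels, the genes of the sorting markers were read first, and as the cells were sorted on these proteins they are not findings. *Cd69* was at 5346, 2862, 3165 and 2439 normalized counts in cMyc+prePB replicates 1 to 4 and at 3686, 1794, 2178 and 1451 in cMyc+lateCD23lo. Each cMyc+prePB library was above the cMyc+lateCD23lo library of its number, but the groups overlapped, and the difference did not pass (log2 fold change 0.62 ± 0.35 SE, limma adjusted p = 0.471). *Fcer2a*, which encodes CD23, was at 3404, 6956, 11102 and 8369 against 3953, 1721, 2138 and 1285. Replicate 1 was the lowest cMyc+prePB and the highest cMyc+lateCD23lo library. With it, *Fcer2a* did not pass (log2 fold change 1.72, limma adjusted p = 0.0682), and with cMyc+prePB replicate 1 left out it did (limma adjusted p = 0.0146). *Cr2*, which encodes CD21/35, was at 2939, 1057, 1472 and 1970 against 8993, 2633, 4392 and 2935. The sign was thus the opposite of that of *Fcer2a*, although cMyc+lateCD23lo was gated as CD21/35lo (log2 fold change -1.27, limma adjusted p = 0.134). *Myc* was at 2300, 4165, 4411 and 4417 against 1528, 1698, 1282 and 1198. All 4 cMyc+prePB libraries were higher, replicate 1 by the least, and the difference did not pass (log2 fold change 1.39 ± 0.39 SE, limma adjusted p = 0.151).

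Genes that define B cells and GC B cells were present in all 8 libraries. *Ms4a1* (CD20) ranged from 40188 to 99567 normalized counts, *Pax5* from 1758 to 3246, and *Fas* (CD95) from 3458 to 6604. Of the 8 GC B cell markers tested 0 passed in limma, 7 had a negative log2 fold change, and the median was -0.54. At an unadjusted p under 0.05, 4 were lower and 0 higher in cMyc+prePB. With the replicate number as a block in the model 4 were called lower. The mean deviation of the list's log2 values from their means over the series was -0.27 to -0.11 in cMyc+prePB libraries. In cMyc+lateCD23lo it was 0.10 to 0.24, without overlap. The 8 PC markers summed to 51799 to 128369 in cMyc+prePB and 73096 to 109745 in cMyc+lateCD23lo, and they differed widely in level. *Jchain* (31885 to 104886), *Mzb1* (10136 to 14746) and *Slamf7* (3237 to 6832) were high in all 8 libraries. *Sdc1* (CD138) was at 108 in cMyc+prePB replicate 2 and at 0 to 2.15 in the other 7 libraries, and *Tnfrsf17* (BCMA) was at 24.3 in cMyc+prePB replicate 4 and at 0 in the others. *Bhlha15*, a factor of secretory cells, was at 0, 14.9, 28.0 and 86.6 in cMyc+prePB and at 0 in all 4 cMyc+lateCD23lo libraries. Of the 6 PC marker genes tested, 0 passed in limma, 0 had an unadjusted p under 0.05, and their median log2 fold change was -0.18. The 12 T cell markers summed to 4652 to 7166 in cMyc+prePB and 4077 to 5973 in cMyc+lateCD23lo, most of it *Lck* (3910 to 6839), which B cells can also express, and *Cd3e* was at 0 in 6 of 8 libraries. Other T cell markers were present: *Trac* was at 11.6 to 110 over the 8 libraries. *Thy1* was at 0, 95.1, 15.3 and 96.5 in cMyc+prePB against 0, 8.42, 0 and 0. The 12 myeloid markers summed to 33.1 to 727 and 51.5 to 1286, with *Csf1r* at 0 in 7 of 8 libraries. *Lyz2* of this list was at 68.8, 0.827, 1.80 and 379 in cMyc+prePB against 320, 0, 968 and 272, and *Fcer1g* was above 0 in all 8 libraries. The part of such cells in the results was not tested.

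Between cMyc+prePB and cMyc+lateCD23lo, 33 genes had a limma adjusted p under 0.05, which is 0.264% of the genes tested. Of these, 16 were higher (0.128%) and 17 lower (0.136%) in cMyc+prePB. At an unadjusted p under 0.05 there were 1588 genes (12.7%), of which 759 (6.07%) were higher and 829 (6.63%) lower. The genes that rose in cMyc+prePB held an AP-1 factor of PC and helper T cell differentiation (*Batf*), a D-type cyclin (*Ccnd2*), a chemotactic receptor (*Gpr183*), a signal transducer of cytokine receptors (*Stat5a*), a cytokine subunit (*Ebi3*) and the constant gene of IgA (*Igha*). Those that fell held an atypical IκB (*Nfkbid*), a DNA ligase and other genes of DNA and nucleotide metabolism (*Lig4*, *Hmces*, *Ada*), a histone chaperone (*Asf1b*) and genes known from GC B cells (*Nuggc*, *Vpreb3*). In each of the 33 genes the groups did not overlap, as in 3.01% of all tested genes for cMyc+prePB above and 3.55% for cMyc+prePB below cMyc+lateCD23lo. With the replicate number as a block in the model, 90 genes were higher and 102 lower, and these included all 33. Of the further genes followed through the alternatives, 25 that did not pass here passed with the block, *Bcl6*, *Cr2* and *Egr2* among them, and 31 did not. The p-values given for single genes are from fits without the block unless the block is named. Leaving out cMyc+prePB replicate 1 gave 60 genes higher and 93 lower, and these included all 33. The counts were 9 and 7 without cMyc+prePB replicate 4, 12 and 9 without cMyc+prePB replicate 3, 14 and 7 without cMyc+lateCD23lo replicate 3, and 14 and 9 without cMyc+lateCD23lo replicate 4. When each of the 8 libraries was left out in turn, 14 genes passed every time, *Batf*, *Ccnd2*, *Gadd45g*, *Gimap3*, *Gimap4*, *Ido1*, *Igha*, *Ly75* and *Plscr1* among those higher, and *Cd36*, *Endou*, *Hmces*, *Nuggc* and *Vpreb3* among those lower.

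**Figure D1:**
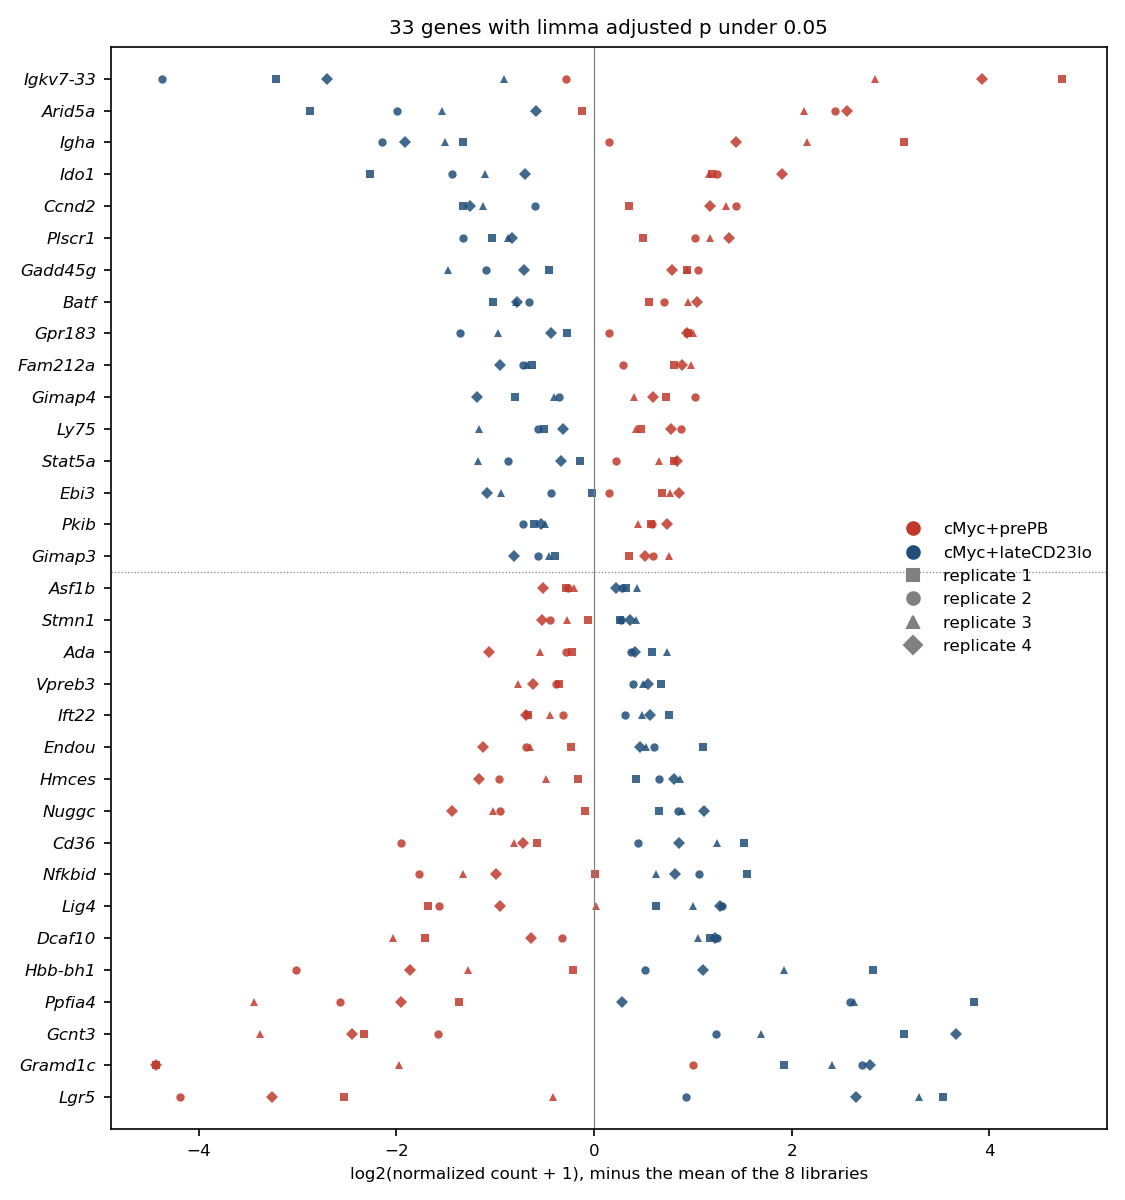
Each row is 1 of the 33 genes with a limma adjusted p under 0.05, and each point is 1 library, red for cMyc+prePB and blue for cMyc+lateCD23lo, with the symbol giving the replicate number. The x axis is log2(normalized count + 1) minus the mean of the 8 libraries for that gene, and no red and blue points overlap in any row.

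*Batf* (ENSMUSG00000034266, chromosome 12, 85686669 to 85709087, plus strand, GRCm38) was at 4969, 5517, 6524 and 6937 normalized counts in cMyc+prePB and at 1667, 2138, 1951 and 1969 in cMyc+lateCD23lo. Every cMyc+prePB library was far above the highest cMyc+lateCD23lo library (log2 fold change 1.62 ± 0.18 SE, limma adjusted p = 0.000225). *Ccnd2*, the cyclin that pairs with CDK4 and CDK6 in G1 and is induced by mitogens and cytokines, was at 6412, 13640, 12710 and 11288 against 1999, 3325, 2300 and 2106. Replicate 1 was the lowest of cMyc+prePB and still above all cMyc+lateCD23lo libraries (log2 fold change 2.15 ± 0.23 SE, limma adjusted p = 0.000225). In GENCODE the gene (chromosome 6, 127125162 to 127152193, minus strand) is overlapped by 2 antisense RNAs, and the strand kept by the library kit is not given in the sources used here, so that reads of overlapping genes cannot be told apart. In a list of 18 tested G1 cyclins, CDKs and CDK inhibitors, *Ccnd2* was the one that passed, and the median of the list was -0.24.

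A STAT factor, a cytokine subunit and an oxysterol receptor were among the genes that rose. *Stat5a*, which carries signals of IL-2 family cytokines to the nucleus, was at 1461, 971, 1313 and 1489 normalized counts in cMyc+prePB and at 754, 457, 369 and 659 in cMyc+lateCD23lo. Replicate 2 was the lowest in cMyc+prePB and above the highest cMyc+lateCD23lo library (log2 fold change 1.26 ± 0.25 SE, limma adjusted p = 0.0367). The gene overlaps *Stat3* on the opposite strand. *Stat3* itself was at 3265, 5656, 5285 and 5301 against 3069, 2488, 2438 and 2410 (log2 fold change 0.88, limma adjusted p = 0.201), with the replicate 1 libraries nearest to each other. *Ebi3*, the subunit shared by the cytokines IL-27 and IL-35, was at 1721, 1185, 1819 and 1935 against 1051, 789, 555 and 503 (log2 fold change 1.24 ± 0.23 SE, limma adjusted p = 0.0245). *Gpr183* (EBI2), the oxysterol receptor that guides activated B cells to the follicle edge, was at 1631, 933, 1683 and 1613 against 697, 329, 428 and 621. It rose (log2 fold change 1.52 ± 0.26 SE, limma adjusted p = 0.0147), and it overlaps *Ubac2*, which is on the opposite strand. *Stat5a*, *Ebi3* and *Gpr183* each lost the call when some single libraries were left out, *Stat5a* in 5 and the others in 4 of the 8 cases.

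In lists of known genes, 17 members of the SOCS, STAT and PIM families were tested. *Stat5a* was the only one called, and the median log2 fold change was 0.54, against -0.01 for all tested genes. *Socs2*, an inhibitor of cytokine signals, was at 130, 270, 351 and 242 against 169, 83.3, 88.7 and 123, with overlap (log2 fold change 1.06, limma adjusted p = 0.723). Of 26 cytokine receptor genes 0 passed in limma, 6 had an unadjusted p under 0.05 with a higher and 1 with a lower value in cMyc+prePB, and the median was 0.15. *Il2ra* (CD25) was at 507, 413, 368 and 762 against 125, 134, 189 and 85.7 (log2 fold change 1.93, limma adjusted p = 0.179), and *Il21r* at 1204, 2454, 3141 and 2166 against 988, 945, 572 and 847 (1.37, limma adjusted p = 0.141). *Il5ra* was low in 3 of the cMyc+prePB libraries, with 170, 8.27, 29.8 and 6.31 against 406, 172, 88.7 and 136 (-2.81, limma adjusted p = 0.139). Once cMyc+prePB replicate 1 was left out, *Il21r* passed as higher (limma adjusted p = 0.0422) and *Il5ra* as lower (limma adjusted p = 0.00555). With number 1 left out of both groups, *Il5ra* passed (limma adjusted p = 0.0198) and *Il21r* did not (0.074), and without cMyc+prePB replicate 2 neither did (limma adjusted p = 0.309 and 0.29).

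*Ido1* and *Plscr1* are both known as genes that interferons induce. *Ido1*, an enzyme that opens the ring of tryptophan, was at 2457, 2531, 2391 and 3990 normalized counts in cMyc+prePB and at 222, 395, 499 and 660 in cMyc+lateCD23lo. All cMyc+prePB libraries were high, replicate 4 the most (log2 fold change 2.75 ± 0.32 SE, limma adjusted p = 0.000225). *Plscr1*, a phospholipid scramblase, was at 3283, 4744, 5249 and 6027 against 1136, 932, 1275 and 1312 (log2 fold change 2.03 ± 0.23 SE, limma adjusted p = 0.000225). In a list of 28 other interferon-stimulated genes 0 passed, 5 higher and 1 lower had an unadjusted p under 0.05, and the median was 0.24. The level of this list, taken per library as the mean deviation of its members from their 16-library means, was 1.38 on the log2 scale in cMyc+prePB replicate 2 and -0.84 to -0.11 in the other cMyc+prePB libraries, against -0.59 to 0.19 in cMyc+lateCD23lo. With cMyc+prePB replicate 2 left out, the log2 fold change was 2.79 for *Ido1* and 2.03 for *Plscr1*, both still called (limma adjusted p = 0.000905 and 0.000905). *Gbp2*, a guanylate-binding protein of the list, was at 465, 2155, 595 and 806 against 621, 183, 230 and 224 and did not pass with that library (log2 fold change 1.58, limma adjusted p = 0.178) or without it (1.13, limma adjusted p = 0.383).

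The remaining genes that rose spanned a wide range of levels. *Gadd45g*, a stress- and cytokine-induced inhibitor of growth, was at 1226, 1322, 1221 and 1103 against 464, 298, 228 and 391 (log2 fold change 1.86 ± 0.23 SE, limma adjusted p = 0.000563), with little spread among the cMyc+prePB libraries. *Gimap4* and *Gimap3*, immune GTPases that both lie on chromosome 6, were at 7123 to 10872 against 2366 to 4193 (log2 fold change 1.38, limma adjusted p = 0.00216) and at 2390 to 3157 against 1061 to 1418 (1.12, limma adjusted p = 0.00468). *Ly75* (DEC-205), an endocytic receptor, was at 2114, 2799, 2031 and 2607 against 1065, 1021, 674 and 1216 (log2 fold change 1.28, limma adjusted p = 0.00824). *Pkib*, an inhibitor of protein kinase A, was at 3379 to 4146 against 1506 to 1759 (log2 fold change 1.18, limma adjusted p = 0.0141), and *Fam212a* (*Inka1* in GENCODE) at 333 to 536 against 140 to 175 (1.49, limma adjusted p = 0.0164). *Arid5a*, which stabilizes mRNAs such as that of IL-6, was at 246, 1458, 1168 and 1584 against 35.6, 66.4, 91.8 and 177. Replicate 1 was the lowest in both groups. *Arid5a* rose (95% interval of the log2 fold change 2.04 to 4.96, limma adjusted p = 0.0344), and it kept the call in 2 of the 8 cases of a library left out, those of cMyc+prePB replicate 1 and cMyc+lateCD23lo replicate 4.

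Antibody genes differed by class. *Igha* (chromosome 12, 113254830 to 113260236, minus strand) was at 21278, 2686, 10770 and 6557 normalized counts in cMyc+prePB and at 962, 546, 848 and 643 in cMyc+lateCD23lo. Replicate 1 was the highest and replicate 2 the lowest of cMyc+prePB, and the mean was 13.8-fold that of cMyc+lateCD23lo (log2 fold change 3.44 ± 0.47 SE, limma adjusted p = 0.00129). Leaving out cMyc+prePB replicate 1, the log2 fold change was 2.97 (limma adjusted p = 0.00176). *Igha* was the only one called of 12 constant genes. *Ighg3* was at 3363, 5247, 3712 and 3171 against 1807, 3313, 1911 and 2092 (log2 fold change 0.78, limma adjusted p = 0.302). *Jchain*, the chain that joins IgA and IgM polymers, was at 104886, 31885, 43640 and 41363 against 51542, 59946, 63385 and 84470. Its highest library was cMyc+prePB replicate 1, the other cMyc+prePB libraries were below all of cMyc+lateCD23lo, and the difference did not pass (log2 fold change -0.36, limma adjusted p = 0.613). The sums of the whole PC marker list, given above, overlapped between the groups, and their part in the *Igha* result was not tested.

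*Igkv7-33*, an immunoglobulin κ variable gene (chromosome 6, 70058632 to 70059199, minus strand), was at 1583, 48.0, 427 and 902 normalized counts in cMyc+prePB and at 5.39, 1.87, 30.6 and 8.16 in cMyc+lateCD23lo. The cMyc+prePB libraries were spread widely (log2 fold change 5.61 ± 1.10 SE, limma adjusted p = 0.0332), and the call was kept in 3 of the 8 cases of a library left out. Variable genes share reads with near-identical copies, so that the assignment of reads to 1 of them is uncertain. Among 105 light chain variable genes tested, *Igkv7-33* was the only one called, the median log2 fold change was -0.38, and 1 was higher and 21 were lower at an unadjusted p under 0.05. *Igkv4-63* was at 138, 151, 125 and 176 against 675, 268, 352 and 355 (log2 fold change -1.40, limma adjusted p = 0.122). The list level was 0.62 in cMyc+prePB replicate 1 and -0.47 to -0.14 in the other cMyc+prePB libraries, against 0.09 to 0.55 in cMyc+lateCD23lo. Of 80 heavy chain variable genes 0 passed, and their median was 0.33, with 7 higher and 2 lower at an unadjusted p under 0.05. *Ighv1-82* was at 212, 127, 201 and 495 against 63.6, 48.7, 75.4 and 64.3 (log2 fold change 1.85, limma adjusted p = 0.131).

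Genes of DNA repair, nucleotide salvage and chromatin assembly were among those that fell in cMyc+prePB. *Hmces*, which binds abasic sites in DNA, was at 4075, 2333, 3246 and 2023 normalized counts in cMyc+prePB and at 6108, 7193, 8334 and 7969 in cMyc+lateCD23lo (log2 fold change -1.39 ± 0.19 SE, limma adjusted p = 0.00129). *Lig4*, the ligase of nonhomologous end joining, was at 74.2, 80.2, 243 and 124 against 371, 592, 483 and 581 (log2 fold change -2.10 ± 0.42 SE, limma adjusted p = 0.0344). *Ada*, adenosine deaminase, was at 1973 to 3520 against 5320 to 6861 (log2 fold change -1.05, limma adjusted p = 0.0164), and *Asf1b*, a histone chaperone of dividing cells, at 10670 to 13285 against 17849 to 20736 (-0.64, limma adjusted p = 0.0344). *Stmn1*, a microtubule regulator of dividing cells, was at 11868 to 16413 against 20537 to 22919 (-0.66, limma adjusted p = 0.0327). *Asf1b* and *Stmn1* had the smallest changes among the called genes and kept their calls in 1 and 2 of the 8 cases of a library left out. In a list of 16 hypermutation and class switching genes *Lig4* was the only one called and the median was -0.02.

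*Nfkbid* (IκBNS), an atypical IκB that acts in the nucleus, was at 313, 90.1, 124 and 156 normalized counts in cMyc+prePB and at 912, 649, 481 and 550 in cMyc+lateCD23lo. Replicate 1 was the highest library of each group (log2 fold change -2.03 ± 0.36 SE, limma adjusted p = 0.0164). No other gene passed in the list of 23 NF-κB subunits, inhibitors and targets that holds it, while 13 were higher and 2 lower in cMyc+prePB at an unadjusted p under 0.05, and the median was 0.66. *Nfkbia* (IκBα), an inhibitor that NF-κB itself induces, was at 11493, 12953, 13776 and 10569 against 9126, 6951, 7375 and 5008. It did not pass here (log2 fold change 0.80 ± 0.17 SE, limma adjusted p = 0.0512), and it passed without cMyc+prePB replicate 1 (limma adjusted p = 0.04) and in the rescaled and quantile-normalized values (limma adjusted p = 0.0224 and 0.0232), but not without cMyc+prePB replicate 2 (limma adjusted p = 0.149). *Traf1* was at 1691, 2307, 1999 and 1802 against 1106, 1114, 1373 and 877 (log2 fold change 0.81, limma adjusted p = 0.0843), and *Icam1* at 1393, 1819, 2181 and 1513 against 1216, 835, 739 and 612 (1.05, limma adjusted p = 0.133). The level of the list was -0.08, 0.13, 0.27 and 0.47 in cMyc+prePB and 0.14, -0.41, -0.42 and -0.94 in cMyc+lateCD23lo, so that the groups overlapped through replicate 1. With cMyc+prePB replicate 1 left out, *Birc3*, *Nfkbia*, *Nfkbie* and *Traf1* were called higher, *Nfkbid* was called lower, and the median was 0.83. With number 1 left out of both groups, those called higher were *Birc3*, *Ccl22* and *Nfkbia*, *Nfkbid* was called lower, and the median was 0.95.

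*Cd36*, a scavenger receptor that takes up fatty acids, was at 1795, 688, 1522 and 1629 normalized counts in cMyc+prePB and at 7638, 3652, 6312 and 4835 in cMyc+lateCD23lo (log2 fold change -2.03 ± 0.31 SE, limma adjusted p = 0.00468). *Nuggc*, a nuclear GTPase known from GC B cells, was at 1338, 736, 703 and 526 against 2261, 2570, 2658 and 3091 (log2 fold change -1.76 ± 0.29 SE, limma adjusted p = 0.00818). The groups were far apart in both genes. *Vpreb3*, known from pre-B cells, was at 3504, 3436, 2623 and 2914 against 7181, 5883, 6320 and 6543 (log2 fold change -1.06 ± 0.15 SE, limma adjusted p = 0.00181). *Endou*, an endoribonuclease, was at 906, 658, 679 and 487 against 2282, 1616, 1538 and 1473 (log2 fold change -1.35, limma adjusted p = 0.00533). *Ift22*, a small GTPase of intraflagellar transport, was at 780 to 1014 against 1567 to 2136 (-1.06, limma adjusted p = 0.0259), and *Dcaf10*, which overlaps *Exosc3* on the opposite strand, at 31.6 to 106 against 276 to 316 (-2.35, limma adjusted p = 0.0171).

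A few genes fell to levels that were low or not measurable. *Ppfia4*, a liprin, had no more than 3 reads in any cMyc+prePB library and was at 155, 64.6, 66.3 and 12.2 normalized counts in cMyc+lateCD23lo, at least 23.1-fold lower with the highest floor of a cMyc+prePB library, 3.22 normalized counts (limma adjusted p = 0.0245). *Gcnt3*, a glycosyltransferase, likewise had no more than 3 reads in any cMyc+prePB library and was at 90.5, 23.4, 32.6 and 131 in cMyc+lateCD23lo, at least 21.5-fold lower with the same floor (limma adjusted p = 0.0212). *Gramd1c*, a sterol transfer protein, was at 0, 42.2, 4.51 and 0 against 80.8, 140, 113 and 149 (limma adjusted p = 0.0175), and *Lgr5*, a receptor for R-spondins, at 2.15, 0, 12.6 and 0.902 against 210, 33.7, 176 and 113 (limma adjusted p = 0.0499). These 4 genes kept their calls in 2 to 4 of the 8 cases of a library left out. *Hbb-bh1*, a globin of the embryo, was at 650, 91.8, 310 and 206 against 5305, 1075, 2856 and 1614 (log2 fold change -3.18 ± 0.60 SE, limma adjusted p = 0.0234), and it lost the call in 5 of the 8 cases of a library left out, those of cMyc+prePB replicates 2, 3 and 4 and cMyc+lateCD23lo replicates 1 and 3 (highest limma adjusted p = 0.092). The adult β-globin *Hbb-bt* was at 220, 103, 288 and 357 against 816, 352, 453 and 246, the 8 markers of red cells and platelets summed to 228 to 3181 against 746 to 1599, and *Alas2* was at 0 in 7 of 8 libraries. *Hba-a2*, an α-globin, was at 17.2, 44.7, 0 and 1261 in cMyc+prePB against 3.23, 589, 30.6 and 268. Globin genes resemble each other closely, so that the assignment of reads among them is uncertain, and the part of red cells in this result was not tested.

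Promoter windows are shown for the called genes with the largest log2 fold change whose window held 1 of 4 motifs, to set the base sequence beside these values. The windows are from RefSeq on GRCm38.p6, from 250 bases before to 50 bases after an annotated start, 5′ to 3′ on the gene's strand. Of the genes that passed, 11 that rose had 13 windows and 11 that fell had 17. The motifs, on both strands, were the E-box CACGTG that MYC can bind, the AP-1 site TGANTCA that BATF can bind with a JUN partner, the E-protein E-box CAGGTG and the NF-κB consensus. Capitals mark each match, and no matches overlap in these windows.
Nfkbid, chr7:30422156-30422455 (plus strand): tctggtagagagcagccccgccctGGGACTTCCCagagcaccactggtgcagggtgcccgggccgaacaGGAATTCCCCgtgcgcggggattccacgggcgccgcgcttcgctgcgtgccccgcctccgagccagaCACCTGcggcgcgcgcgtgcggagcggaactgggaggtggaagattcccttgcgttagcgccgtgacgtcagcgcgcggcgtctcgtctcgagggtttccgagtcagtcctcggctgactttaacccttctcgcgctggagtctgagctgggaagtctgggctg
Plscr1, chr9:92249944-92250243 (plus strand): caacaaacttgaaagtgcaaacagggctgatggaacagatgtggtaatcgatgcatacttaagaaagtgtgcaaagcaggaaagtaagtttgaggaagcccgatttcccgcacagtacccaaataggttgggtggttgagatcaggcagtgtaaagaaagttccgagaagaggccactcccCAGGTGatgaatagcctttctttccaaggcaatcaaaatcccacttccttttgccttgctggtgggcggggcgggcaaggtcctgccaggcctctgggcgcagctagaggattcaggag
Gadd45g, chr13:51846425-51846724 (plus strand): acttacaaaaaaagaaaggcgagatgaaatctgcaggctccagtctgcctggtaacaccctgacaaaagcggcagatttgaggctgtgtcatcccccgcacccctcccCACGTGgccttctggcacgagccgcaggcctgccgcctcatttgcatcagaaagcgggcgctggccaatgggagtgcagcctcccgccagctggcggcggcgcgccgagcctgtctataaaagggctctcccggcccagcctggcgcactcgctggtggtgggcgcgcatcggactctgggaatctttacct
Ppfia4, chr1:134344667-134344966 (minus strand): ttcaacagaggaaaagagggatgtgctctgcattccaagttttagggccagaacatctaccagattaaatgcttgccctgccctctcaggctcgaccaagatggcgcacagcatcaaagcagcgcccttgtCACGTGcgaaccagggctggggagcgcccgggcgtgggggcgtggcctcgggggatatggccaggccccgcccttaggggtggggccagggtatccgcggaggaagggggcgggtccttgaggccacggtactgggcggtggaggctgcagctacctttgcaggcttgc
Gramd1c, chr16:44016387-44016686 (minus strand): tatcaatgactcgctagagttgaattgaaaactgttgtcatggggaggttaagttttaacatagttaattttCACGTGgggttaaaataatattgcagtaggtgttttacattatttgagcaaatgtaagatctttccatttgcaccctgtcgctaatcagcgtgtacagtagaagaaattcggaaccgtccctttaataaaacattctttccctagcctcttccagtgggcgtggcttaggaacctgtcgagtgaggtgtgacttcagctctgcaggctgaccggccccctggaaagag
Gramd1c, chr16:44027896-44028195 (minus strand): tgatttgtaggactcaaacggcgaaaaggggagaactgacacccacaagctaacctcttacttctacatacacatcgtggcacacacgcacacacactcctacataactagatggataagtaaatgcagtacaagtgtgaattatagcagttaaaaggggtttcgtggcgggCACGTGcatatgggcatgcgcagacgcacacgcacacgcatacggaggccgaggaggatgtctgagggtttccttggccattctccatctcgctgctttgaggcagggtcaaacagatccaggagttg

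The *Nfkbid* window lies inside the gene and holds 2 matches to the NF-κB consensus and an E-protein E-box, which reads on the opposite strand. The *Plscr1* window, which also lies inside its gene as GENCODE draws it, holds an E-protein E-box. Those of *Gadd45g*, *Ppfia4* and *Gramd1c* hold the E-box CACGTG. Both *Gramd1c* windows are at alternative starts inside the gene as GENCODE draws it, and that of *Ppfia4* lies upstream of it. The NF-κB consensus was in 2 of 13 windows of genes that rose, *Stat5a* and *Ebi3*, and in 1 of 17 of genes that fell, against 4.505% of all windows and 4.897% of those of tested genes. CACGTG was in 1 of 13 and 3 of 17, against 7.15% of all windows and 10.38% of those of tested genes. CAGGTG was in 3 of 13 and 3 of 17, against 20.21% and 17.38%, and the AP-1 site in 0 of 13 and 0 of 17, against 7.808% and 4.668%. With so few windows these counts are a description, and a match is not a site.

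Growth genes leaned higher in cMyc+prePB while few passed singly. Over all 12505 tested genes, 6185 had a positive and 6318 a negative log2 fold change. Of 38 MYC targets, 35 had a positive log2 fold change, the median was 0.48, and 17 were higher and 1 lower at an unadjusted p under 0.05, with *Ccnd2* the only one called. With the replicate block 8 of these targets were called higher and 0 lower, against 90 and 102 of all tested genes. Of 52 ribosome biogenesis genes, 48 were positive, the median was 0.45, 18 were higher and 0 lower at an unadjusted p under 0.05, and 0 passed in limma. With the replicate block 6 of them were called higher and 0 lower, against the same 90 and 102 of all tested genes. The MYC target and ribosome biogenesis lists share many members, so that their leanings are not independent. *Nop56*, a protein of the particles that methylate ribosomal RNA, was at 14150, 17404, 19315 and 18819 normalized counts in cMyc+prePB and at 10284, 12470, 11548 and 13221 in cMyc+lateCD23lo (log2 fold change 0.55, limma adjusted p = 0.0907). *Nle1*, needed to mature the large ribosomal subunit, was at 336, 566, 799 and 836 against 51.7, 291, 80.5 and 182 (2.28, limma adjusted p = 0.0848), and *Srm*, which makes spermidine, at 1915, 3486, 3538 and 4106 against 688, 1783, 1681 and 1798 (1.18, limma adjusted p = 0.194). The replicate 1 library was the lowest of its group for all 3 genes. With cMyc+prePB replicate 1 left out, *Nop56* and *Nle1* passed as higher (limma adjusted p = 0.0311 and 0.0384), and *Srm* did not (0.0716). That fit called 3 ribosome biogenesis genes higher and 0 lower, against 60 and 93 of all tested genes. With number 1 left out of both groups, 0 ribosome biogenesis genes were called. The level of the MYC target list was -0.04, 0.40, 0.43 and 0.51 in cMyc+prePB and -0.65, -0.05, -0.16 and -0.02 in cMyc+lateCD23lo, so that replicate 1 of cMyc+prePB lay among the cMyc+lateCD23lo libraries and above that of its own number. The 80 cytosolic ribosomal proteins had a median of 0.07 with 0 called. Glycolysis and hypoxia genes (22) had a median of 0.34 with 0 called and 5 higher at an unadjusted p under 0.05, and oxidative phosphorylation genes (90) a median of -0.15 with 0 called.

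Cell division genes leaned the other way, set beside 6185 positive and 6318 negative values over all tested genes. Of 52 G2/M genes, 44 had a negative log2 fold change, the median was -0.36, 21 were lower and 0 higher at an unadjusted p under 0.05, and 0 passed in limma. *Mki67*, the proliferation marker, was at 13627, 12987, 9804 and 9087 normalized counts in cMyc+prePB and at 14632, 20291, 17486 and 19743 in cMyc+lateCD23lo (log2 fold change -0.68, limma adjusted p = 0.0843), and *Kif20b*, a kinesin of cytokinesis, was at 2384, 2493, 1792 and 1160 against 3064, 3676, 3550 and 4474 (-0.96, limma adjusted p = 0.0864). No cMyc+prePB library reached the lowest cMyc+lateCD23lo library in either gene. This held for 9 of the 52 genes and the reverse for 0, against 3.55% and 3.01% of all tested genes. The G2/M list level was -0.38, -0.16, -0.23 and -0.10 in cMyc+prePB and -0.39, 0.22, 0.24 and 0.38 in cMyc+lateCD23lo, so that replicate 1 was the lowest in both groups and the other libraries of the groups were apart. With cMyc+prePB replicate 1 left out, *Kif20b*, *Mki67* and *Smc4* were called lower. With number 1 left out of both groups, *Mki67* and *Nuf2* were called lower, and *Kif20b* and *Smc4* did not pass (limma adjusted p = 0.0574 and 0.0669). Of 43 S-phase genes, 31 were negative, the median was -0.19, and 12 were lower and 2 higher at an unadjusted p under 0.05, with 0 called. *Slbp*, which binds histone mRNA, was at 30190, 21082, 21328 and 17676 against 31859, 32769, 34368 and 33802 (log2 fold change -0.58, limma adjusted p = 0.166), and *Mxd3*, a MYC network repressor, at 952, 413, 472 and 511 against 1334, 1081, 1020 and 1132 (-1.03, limma adjusted p = 0.108). Once cMyc+prePB replicate 1 was left out, both *Slbp* and *Mxd3* passed as lower (limma adjusted p = 0.0384 and 0.0164). With number 1 left out of both groups, *Mxd3* passed (limma adjusted p = 0.0435) and *Slbp* did not (0.0669).

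**Figure D2:**
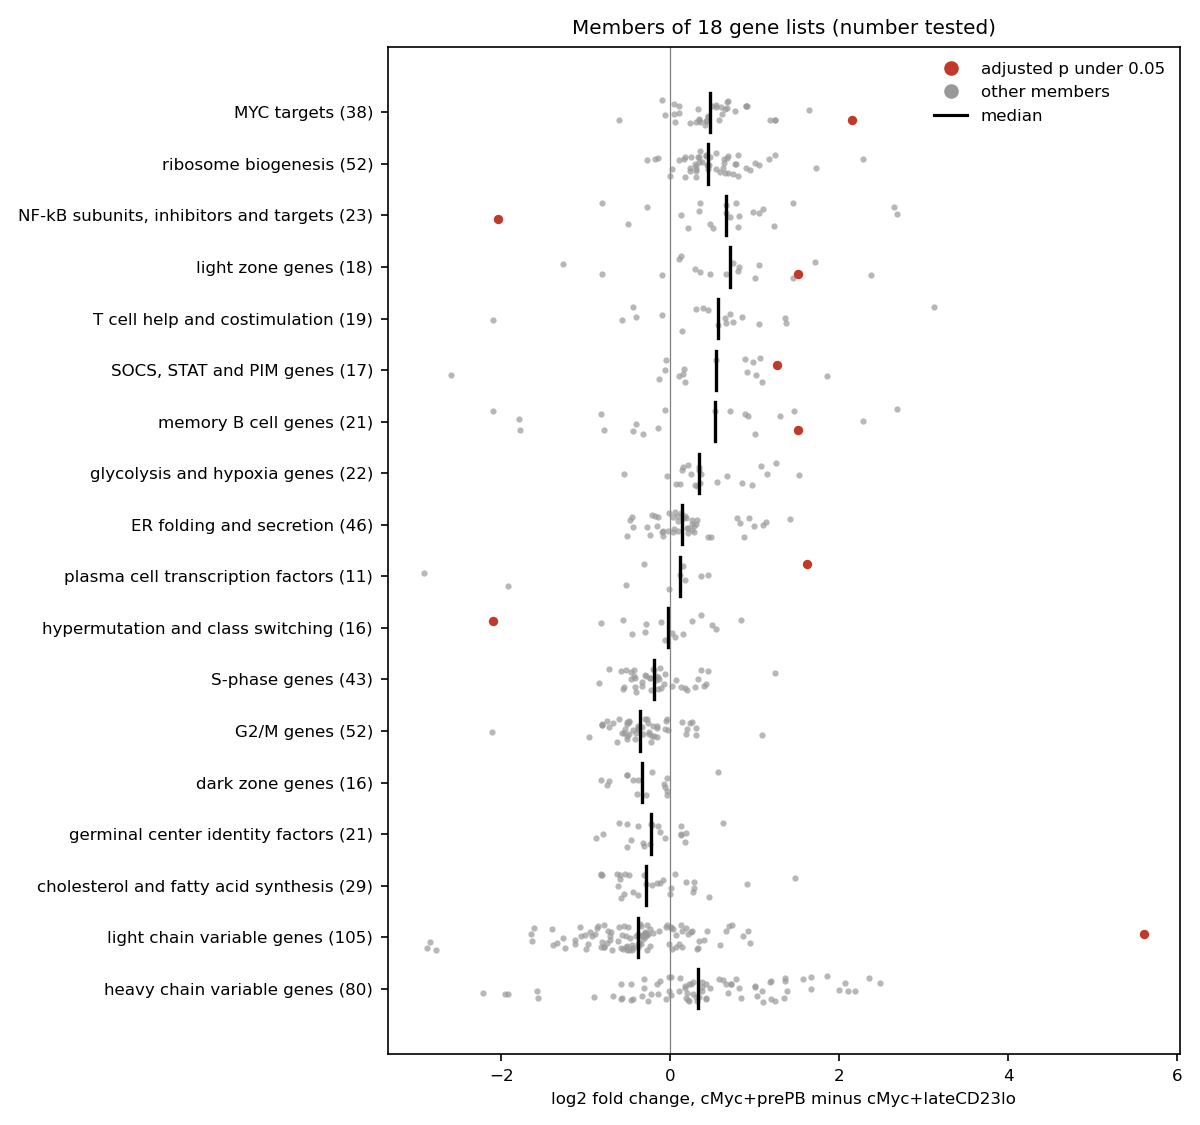
Each row is a gene list with the number of its members tested, each point is the log2 fold change of 1 member (cMyc+prePB minus cMyc+lateCD23lo), red where the limma adjusted p was under 0.05, and the bar is the median of the list. Medians run from 0.71 in the LZ genes to -0.38 in the light chain variable genes, and no list drawn has more than 1 red point.

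LZ and DZ genes took opposite signs, set beside 6185 positive and 6318 negative values over all tested genes. Of 18 LZ genes, 15 were positive with a median of 0.71, *Gpr183* was called, and 9 were higher and 2 lower at an unadjusted p under 0.05. *Egr2*, a factor induced by antigen receptor signals, was at 258, 790, 948 and 876 normalized counts in cMyc+prePB and at 92.7, 73.9, 232 and 142 in cMyc+lateCD23lo (log2 fold change 2.38, limma adjusted p = 0.0848, 0.0254 without cMyc+prePB replicate 1 and 0.0574 with number 1 left out of both groups). *Cd40*, the receptor for T cell help, was at 3467, 4147, 3449 and 4049 against 2398, 3078, 2543 and 1697 (0.66, limma adjusted p = 0.182), while *Cd83* overlapped (0.36, limma adjusted p = 0.479). The level of the LZ list was -0.07, -0.09, 0.16 and 0.06 in cMyc+prePB and 0.01, -0.81, -0.55 and -1.11 in cMyc+lateCD23lo, and replicate 1 of cMyc+lateCD23lo lay among the cMyc+prePB libraries. With cMyc+prePB replicate 1 left out, 6 members were called higher and *Cr2* lower, and with number 1 left out of both groups 3 were called higher, *Fcer2a*, *Gpr183* and *Nfkbia*, and 0 lower. The list includes the sorting marker genes *Fcer2a*, *Cr2* and *Cd86* (log2 fold change of *Cd86* -0.09, limma adjusted p = 0.922), and 9 of its members are also in the NF-κB list. Of 19 genes of T cell help 0 passed, 5 were higher and 1 lower at an unadjusted p under 0.05, and their median was 0.57. Of 16 DZ genes, 15 were negative with a median of -0.34, 0 passed, and 4 were lower at an unadjusted p under 0.05, and 7 of the list are also in the G2/M list. The DZ list includes the sorting marker gene *Cxcr4* (log2 fold change -0.04, limma adjusted p = 0.981).

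Among 11 PC transcription factors *Batf* alone was called and the median was 0.12. *Prdm1* was at 6.45, 119, 9.02 and 6.31 normalized counts in cMyc+prePB and at 90.5, 133, 10.2 and 97.9 in cMyc+lateCD23lo (log2 fold change -1.92, limma adjusted p = 0.462). *Irf4* was at 505, 870, 968 and 573 against 800, 835, 287 and 461 (0.36, limma adjusted p = 0.698), and *Xbp1* at 5894, 4275, 5155 and 3956 against 3717, 4502, 3692 and 5091 (0.18, limma adjusted p = 0.654). The groups overlapped in all 3 genes. Of 46 genes of protein folding and secretion in the ER, 0 passed, 6 were higher and 2 lower at an unadjusted p under 0.05, and the median was 0.14. *Hspa5* (BiP), the main chaperone of the ER, was at 56216, 73492, 63249 and 63068 against 38736, 46816, 43963 and 53555, higher in every cMyc+prePB library (log2 fold change 0.49 ± 0.13 SE, limma adjusted p = 0.126). *Pdia4* was at 1524, 3533, 2426 and 3665 against 1002, 1439, 1310 and 1931 (0.93, limma adjusted p = 0.181, 0.0367 without cMyc+prePB replicate 1 and 0.0853 with number 1 left out of both groups). *Ly6c2*, a surface protein known from PCs, was at 60.2, 53.8, 0 and 33.4 against 1.08, 0.936, 0 and 0 (limma adjusted p = 0.286). Of 9 PC surface and antibody genes 0 passed and the median was -0.18.

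In a list of 21 factors of GC identity 0 passed, 15 were negative (6318 of 12505 over all tested genes) and the median was -0.23. *Bcl6*, the repressor that holds the GC state, was at 2204, 1796, 1476 and 1238 normalized counts in cMyc+prePB and at 4242, 2476, 3198 and 1947 in cMyc+lateCD23lo, with overlap between the groups (log2 fold change -0.79, limma adjusted p = 0.182). *Id3*, an inhibitor of E proteins, was at 1672, 1360, 1679 and 1079 against 4332, 2231, 2801 and 1751, below in each library (-0.88, limma adjusted p = 0.191), and *Ets1* at 10420, 10179, 10637 and 7746 against 15627, 11313, 17281 and 15183 (-0.60, limma adjusted p = 0.234). *Rgs13*, which dampens chemokine signals in GC B cells, was at 14152, 9218, 9490 and 9996 against 18539, 15855, 21992 and 19423 (-0.84, limma adjusted p = 0.111, 0.0384 without cMyc+prePB replicate 1 and 0.0762 with number 1 left out of both groups). Among 21 MBC genes *Gpr183* was called and the median was 0.54, with 5 higher and 1 lower at an unadjusted p under 0.05. *Klf2* was at 41.9, 22.3, 14.4 and 9.02 against 6.47, 0, 5.10 and 1.02 (limma adjusted p = 0.237), and *Il9r* at 227, 547, 324 and 322 against 75.4, 261, 197 and 56.1 (log2 fold change 1.46, limma adjusted p = 0.264). The MBC median was negative in 1 of 22 alternatives tried (-0.10). Of 20 genes that the study names for this RNAseq, 3 were called, *Batf*, *Ccnd2* and *Gpr183*, and as the study chose them on these libraries the list is not independent evidence.

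Cholesterol and fatty acid synthesis genes had a median of -0.29 over 29 genes, with 10 lower and 1 higher at an unadjusted p under 0.05 and 0 called. *Hmgcs1*, which makes the substrate of the pathway's committed step, was at 3679, 2991, 3015 and 2703 normalized counts in cMyc+prePB and at 5357, 4248, 5334 and 3758 in cMyc+lateCD23lo (log2 fold change -0.59, limma adjusted p = 0.167). *Acat2* was at 5536, 4178, 6247 and 4920 against 8068, 6390, 8262 and 7482 (-0.54, limma adjusted p = 0.188). Every cMyc+prePB library was below every cMyc+lateCD23lo library in both genes. This held for 5 of the 29 genes and the reverse for 0, against 3.55% and 3.01% of all tested genes. With the replicate block 2 of the 29 genes were called lower and 0 higher, against 102 and 90 of all tested genes. *Acat2* passed with the block (limma adjusted p = 0.0413).

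**Figure D3:**
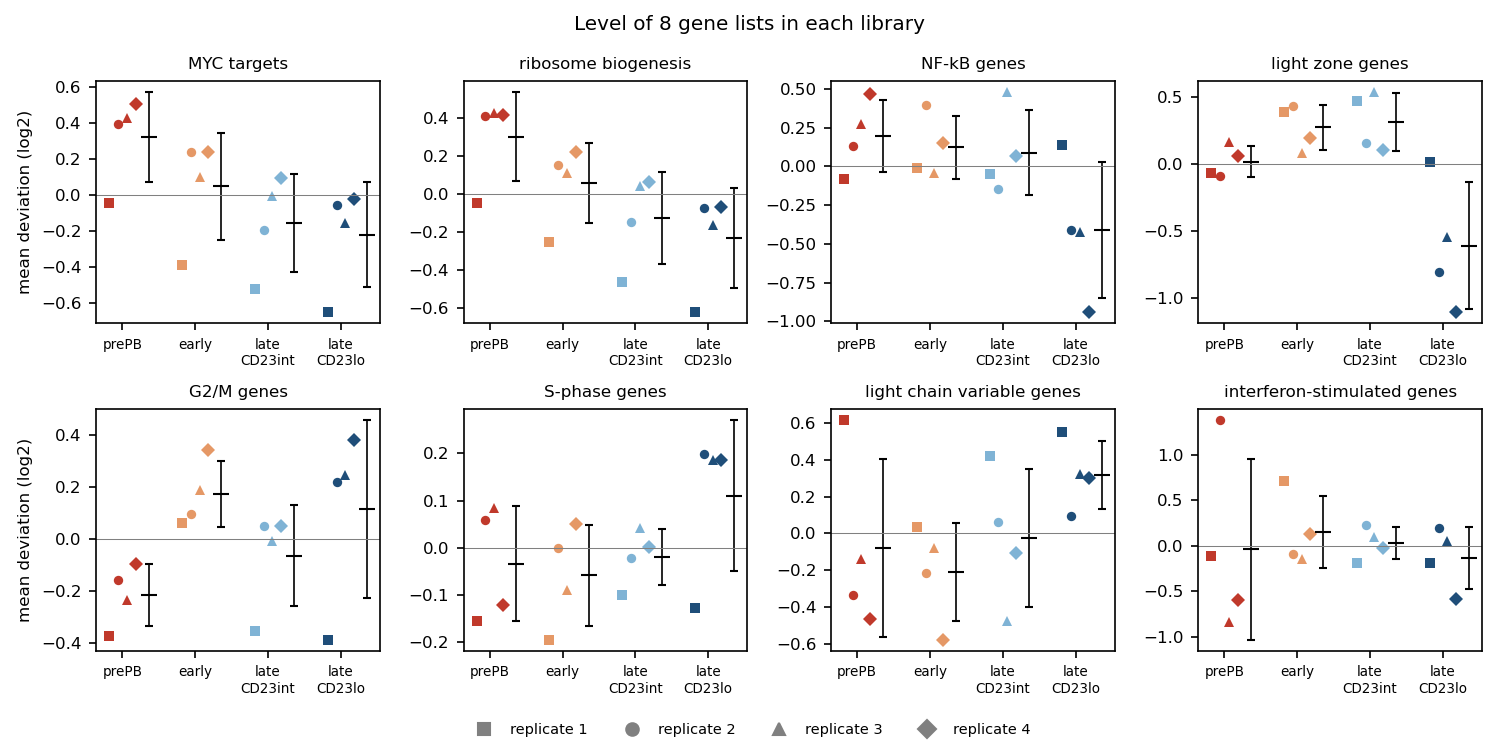
Each panel gives 1 gene list, each point 1 library of the subpopulation on the x axis, the symbol its replicate number, and the y axis the mean deviation of the members' log2(normalized count + 1) from their 16-library means, with bars for mean and SD of 4 libraries. MYC target levels run from -0.04 to 0.51 in cMyc+prePB and from -0.65 to -0.02 in cMyc+lateCD23lo, and replicate 1 is the lowest point of both groups in the MYC target, ribosome biogenesis and G2/M panels.

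The levels of the called genes in the other cMyc+ subpopulations placed most of them between the groups compared. Of the 16 genes that rose, the cMyc+early mean of log2 values lay between those of cMyc+prePB and cMyc+lateCD23lo in 12, the cMyc+lateCD23int mean in 13, and 9 had the full order cMyc+prePB, cMyc+early, cMyc+lateCD23int, cMyc+lateCD23lo. Of the 17 that fell, 12, 12 and 7 did so in the reverse direction, and over all tested genes 13.17% had the full order in either direction. Over all 12505 tested genes the cMyc+early mean lay between in 4801 and the cMyc+lateCD23int mean in 5098. Both lay between in 10 of the 16 and 9 of the 17, against 23.43% of all tested genes. Choosing genes for a difference between the end groups favors this, so that these counts are a description. *Ido1* averaged 2842 ± 767 (SD, n = 4) normalized counts in cMyc+prePB, followed by 1117 ± 383 for cMyc+early, 584 ± 159 for cMyc+lateCD23int and 444 ± 184 for cMyc+lateCD23lo, the last pair within their spread. *Arid5a* averaged 1114 ± 604, 380 ± 234, 264 ± 202 and 92.8 ± 60.9 in the same order.

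Other called genes did not follow this order. *Igha* averaged 10323 ± 8015 (SD, n = 4) normalized counts for cMyc+prePB, while cMyc+early, cMyc+lateCD23int and cMyc+lateCD23lo averaged 454 ± 128, 681 ± 341 and 750 ± 189. *Cd36* averaged 1408 ± 493 for cMyc+prePB and 5247 ± 1729, 5700 ± 1746 and 5609 ± 1736 for the others, whose means lay within their spread. *Gpr183* averaged 1465 ± 356 for cMyc+prePB and 1842 ± 417 for cMyc+early, within their spread, and 1047 ± 188 and 519 ± 170 for cMyc+lateCD23int and cMyc+lateCD23lo. *Hmces* averaged 2919 ± 929, 2664 ± 224, 4252 ± 327 and 7401 ± 985 from cMyc+prePB to cMyc+lateCD23lo, the first pair within their spread. *Endou* had a low pair, cMyc+prePB with 683 ± 172 and cMyc+early with 862 ± 102, and a high pair, cMyc+lateCD23int with 1737 ± 222 and cMyc+lateCD23lo with 1727 ± 375.

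**Figure D4:**
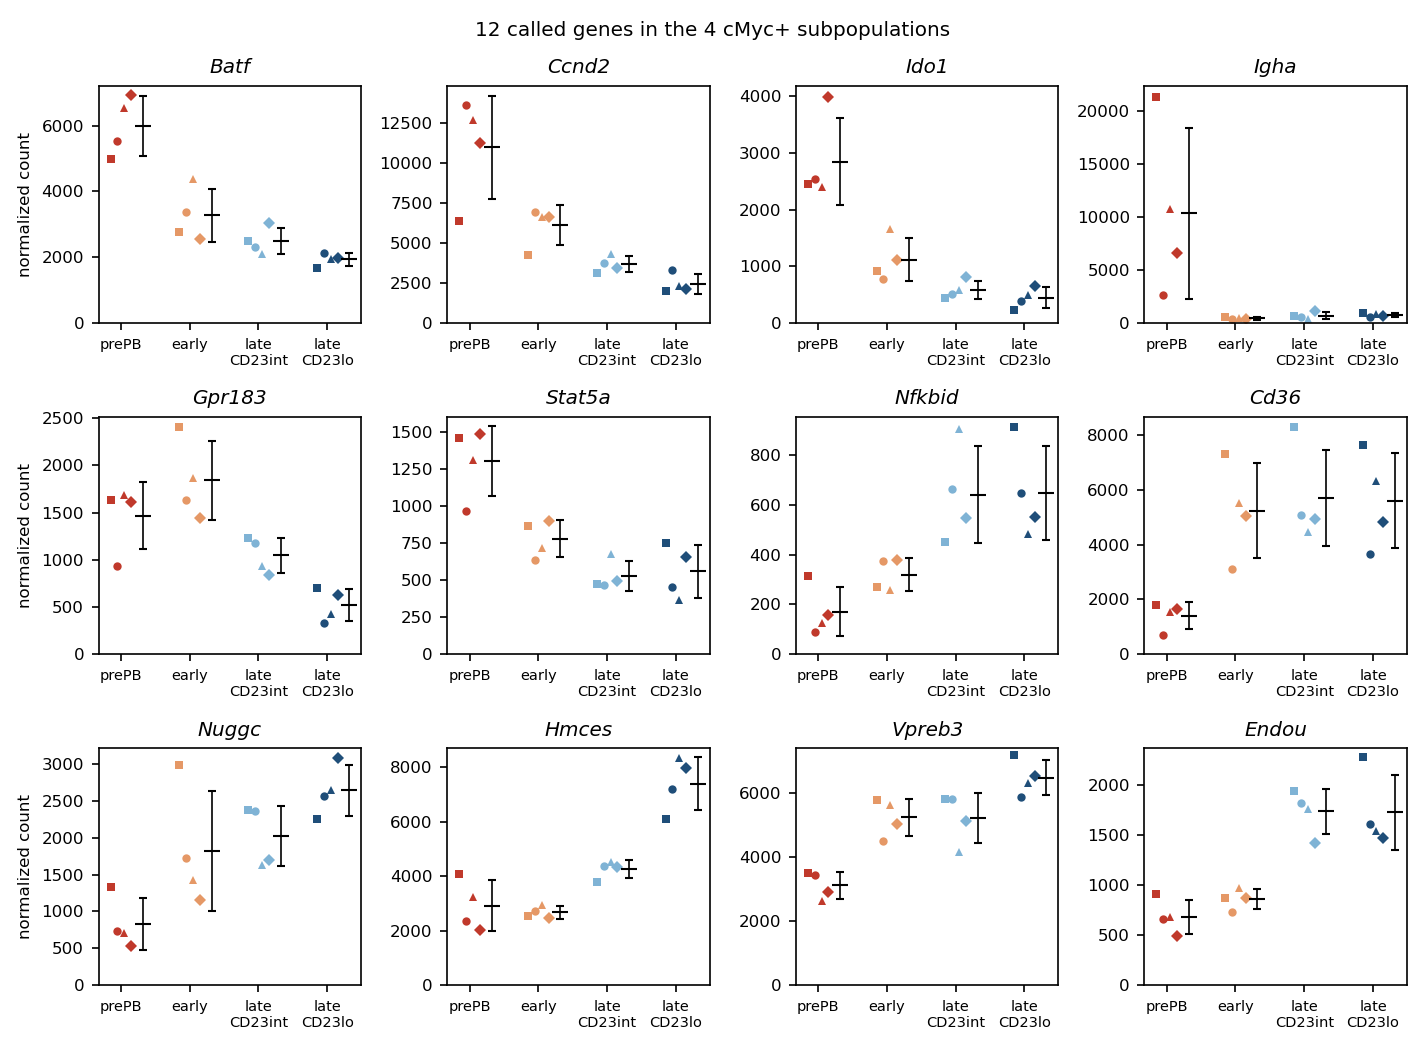
Each panel gives the normalized counts of 1 called gene in the 16 libraries, by subpopulation, with the symbol for the replicate number and bars for mean and SD of 4 libraries. The means of *Batf*, *Ccnd2* and *Ido1* step down from cMyc+prePB to cMyc+lateCD23lo, *Igha* and *Cd36* differ between cMyc+prePB and the other 3 groups, and *Hmces* is highest in cMyc+lateCD23lo, with 7401 ± 985.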

How the data were processed

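RNA was made from sorted cells with a low-input kit and sequenced in 16 libraries. The signal values that the authors deposited are gene counts that they divided by 1 size factor for each library, and the submitters' processing notes name Trimmomatic 0.36, STAR 2.5.2a, RSEM 1.2.31, DESeq2 1.20.0, R 3.5.1 and GRCm38. Dividing each value by the worth of 1 read gave whole reads in 100% of values, within 0.01 reads. Columns were assigned to libraries by the names in the labels, and 0 columns were left unassigned.

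In R 4.3.3, limma 3.58.1 was fitted with a trended prior to log2(normalized count + 1) of the 12505 genes whose mean was 10 or more, in 1 model over 16 libraries and 4 groups, with Benjamini-Hochberg adjustment over all genes tested. Because of the added 1, fold changes of low genes come out too small. Genes named are up to 15 per direction with the largest called change, called list members, up to 4 further members per list and genes of the sort or the study; *Gimap3*, *Asf1b* and *Stmn1* complete the called genes, and *Birc3*, *Nfkbie* and the cell type markers outside this rule (*Pax5*, *Slamf7*, *Sdc1*, *Tnfrsf17*, *Bhlha15*, *Cd3e*, *Csf1r* and *Alas2*) were named after their values were seen. *Lyz2*, *Fcer1g*, *Trac*, *Thy1* and *Hba-a2* were also named after their values were seen. The gene lists, from general knowledge, and the comparison were chosen with earlier results of these data known. Coordinates are from GENCODE M21 (GRCm38).

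Alternatives were pseudocounts of 0.5 and 5, no filter, a mean of at least 50, rescaling, quantile normalization, no trend, a replicate block, only the 8 libraries, edgeR 4.0.16 and DESeq2 1.42.0 on recovered reads (15 libraries, without cMyc+lateCD23int replicate 1), and leaving out each library. The fit without number 1 in both groups was added after the data were seen. A few results are not reported here.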

Additional observations from a re-analysis of the deposited data

Results flagged for a closer look

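In 15 of 178 groups of 4 libraries of named genes (8.43%), 1 library lay far from the other 3, where chance gives about 1 in 20. In cMyc+prePB, replicate 1 was far above the others for *Jchain* (104886 normalized counts, others up to 43640), *Rgs13* (14152, up to 9996) and *Il5ra* (170, up to 29.8), and far below for *Myc* (2300, from 4165) and *Stat3* (3265, from 5285). Replicate 2 was far above for *Prdm1* (119, up to 9.02) and *Gramd1c* (42.2, up to 4.51) and below for *Gpr183* (933, from 1613) and *Cd83* (43661, from 58726). Replicate 3 was far above for *Lgr5* (12.6, up to 2.15), and replicate 4 above for *Ido1* (3990, up to 2531) and below for *Ets1* (7746, from 10179). In cMyc+lateCD23lo, replicate 1 was far above for *Gbp2* (621, up to 230) and *Stat3* (3069, up to 2488) and below for *Srm* (688, from 1681).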

How the results depend on the processing

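All 33 called genes kept their direction in all 22 alternatives. Because the groups did not overlap in any of these genes, leaving out libraries could not reverse a direction, so that this is not evidence of robustness. The counts, as genes higher and lower in cMyc+prePB (16 and 17), moved by over 1.5 times in these alternatives. DESeq2 gave 163 and 152, the 8 libraries alone 9 and 4, quantile normalization 28 lower, no filter on low values 9 lower, and the fit without number 1 in both groups 26 and 40. Leaving out 1 library gave 9 to 60 higher and 7 to 93 lower, with 9 and 7 without cMyc+prePB replicate 4, 60 and 93 without cMyc+prePB replicate 1, and 15 to 33 of the 33 genes still called. Still called were 27 in edgeR, 32 in DESeq2, 13 in the 8 libraries alone and 22 without a trend. The cause of these moves was not tested.

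With the replicate block the counts were 90 and 102, with the block in the 8 libraries alone 30 and 27, and with the block in edgeR 63 and 70. The deviations of same-numbered cMyc+prePB and cMyc+lateCD23lo libraries correlated by 0.103, 0.0801, 0.0183 and 0.0371 for numbers 1 to 4 over the tested genes, and by 0.456, 0.383, 0.0211 and 0.220 over the 3651 genes averaging 1000 or more. In both gene sets cMyc+prePB replicates 1, 2 and 4 each correlated best with the cMyc+lateCD23lo library of their number. Over the tested genes cMyc+prePB replicate 3 correlated best with cMyc+lateCD23lo replicate 4. The numbers were not taken as pairs, because the labels give no shared mice and not every correlation was over 0.1, so that the block stayed an alternative. If same-numbered libraries do share mice, the main fit ignores that pairing and may call too few genes. With the block, 8 MYC targets, 6 ribosome biogenesis genes and 5 LZ genes were called higher and 3 G2/M genes lower, and *Bcl6*, *Cr2* and *Egr2* passed (limma adjusted p = 0.0173, 0.0093 and 0.0146). List medians moved by less than the spread of the libraries in 978 of 990 refits. Even so, the medians of several lists changed sign over the refits. Among them were the PC transcription factors (-0.05 to 0.20), the interferon-stimulated genes (-0.04 to 0.59) and the MBC genes (-0.10 to 0.68). Rescaling to the same total moved the median of all genes to 0.07.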

Other observations

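Transporters were read as a family. Of 160 solute carrier genes tested 0 passed in limma, 15 were higher and 5 lower in cMyc+prePB at an unadjusted p under 0.05, and the median log2 fold change was 0.09. *Slc7a3*, a transporter of arginine and lysine, was at 206, 118, 10.8 and 28.0 normalized counts in cMyc+prePB and at 3.23, 1.87, 0 and 0 in cMyc+lateCD23lo, with no more than 3 reads in any library of the latter (limma adjusted p = 0.146). *Slc25a1*, the mitochondrial citrate carrier, was at 307, 533, 474 and 559 against 58.2, 89.8, 119 and 162 (log2 fold change 2.17, limma adjusted p = 0.139). *Slc19a1*, which takes up folate, was at 172, 492, 540 and 907 against 44.2, 88.9, 56.1 and 118 (2.64, limma adjusted p = 0.194), and *Slc14a1*, a urea transporter, at 265, 151, 289 and 289 against 86.2, 90.8, 94.8 and 106 (1.35, limma adjusted p = 0.0843). In each of these 4 genes every cMyc+prePB library was above every cMyc+lateCD23lo library. This held for 8 of the 160 genes and the reverse for 2, against 3.01% and 3.55% of all tested genes.

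Survival genes did not pass. Of 16 genes of the BCL2 family and cell death 0 were called in limma, 4 were higher and 1 lower at an unadjusted p under 0.05, and the median was 0.07. *Bcl2* was at 153, 128, 164 and 175 in cMyc+prePB and at 330, 1.87, 81.6 and 12.2 in cMyc+lateCD23lo (limma adjusted p = 0.347), close together in the former and scattered in the latter. *Bcl2l1*, which encodes Bcl-xL, was at 224, 202, 431 and 1096 against 119, 107, 137 and 6.12 (log2 fold change 2.69, limma adjusted p = 0.288). *Ccl22*, a chemokine that draws helper T cells, was at 494, 761, 1086 and 1601 against 605, 56.1, 298 and 39.8 (2.65, limma adjusted p = 0.134), and it was called with number 1 left out of both groups (limma adjusted p = 0.0276).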
